A study of Rattus norvegicus with 9 samples.

Results

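The genes described are 7 subunits of NADPH oxidases, the enzymes that make superoxide or hydrogen peroxide: Cybb, Cyba, Ncf1, Ncf4, Rac2, Nox4 and Duox1. They were taken by gene symbol from the deposited tables, and all 7 were found among 23026 genes. RNA from the bone of 9 female Sprague–Dawley rats was sequenced after poly(A) selection, with 3 libraries in each of 3 groups. In the Sham group the ovaries were left in place, an equal amount of fat beside them was removed, and the rats were given sodium carboxymethyl cellulose (CMC-Na) without drug. The OVX group was ovariectomized and given 1% CMC-Na. The OVX-AS-IV-High group was ovariectomized and, starting 6 weeks after surgery, was given astragaloside IV (AS-IV), a plant saponin, at 80 mg/kg by gavage for 8 weeks. The labels state CMC-Na at 1%, 2% and 3% for Sham-1, Sham-2 and Sham-3, which leaves each concentration in that group with 1 library, and state no vehicle for OVX-AS-IV-High, whereas the methods describe the same vehicle for all groups. The rats were bought at 8 weeks of age, before surgery. Each library held between 34874880 and 37298250 counts.

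The phagocyte NADPH oxidase passes electrons from NADPH to oxygen across a membrane and releases superoxide. Its membrane core is formed by Cybb, which carries the electrons, and Cyba, the partner that stabilizes it; on activation the cytosolic proteins encoded by Ncf1 and Ncf4, together with the GTPase Rac2, join this core. In bone the complex is best known from neutrophils, monocytes and macrophages of the marrow, and oxidants made by NADPH oxidases have also been studied in osteoclast formation. Nox4 and Duox1 are catalytic homologs of Cybb with their own expression patterns: Nox4 works with Cyba without the cytosolic organizers, and Duox1 needs a maturation factor, Duoxa1.

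Levels were compared between genes in FPKM, the authors' unit for fragments scaled by gene length and by library size. The mean FPKM over the 9 libraries was highest for Rac2, at 338 with a range of 301 to 363, followed by Cyba at 241 with a range of 202 to 265. Ncf1 had a mean FPKM of 169 (range 125 to 248), Cybb of 125 (range 94.4 to 155) and Ncf4 of 52.0 (range 35.5 to 69.2). These 5 phagocyte genes lay between percentile 91.8 (Ncf4) and percentile 98.8 (Rac2) of mean FPKM among the 16874 genes that passed a filter on low counts, as all 7 subunits did. Nox4 and Duox1 were far lower, with mean FPKM of 0.363 (range 0.147 to 0.563) and 0.121 (range 0.0256 to 0.213), at percentiles 14.4 and 5.69. Rac2 was above Cyba in FPKM in 9 of 9 libraries with ranges that did not meet, and so was Cybb above Ncf4. The neighbours Cyba and Ncf1, and Ncf1 and Cybb, kept their order in 8 of 9 libraries but had overlapping ranges. Nox4 was above Duox1 in 9 of 9 libraries, although the ranges overlapped. Among the phagocyte genes, Rac2 and Cyba varied least between libraries, with a coefficient of variation of FPKM of 7.10% and 8.61%, and Ncf1 varied most, with 26.1%.

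**Figure D1:**
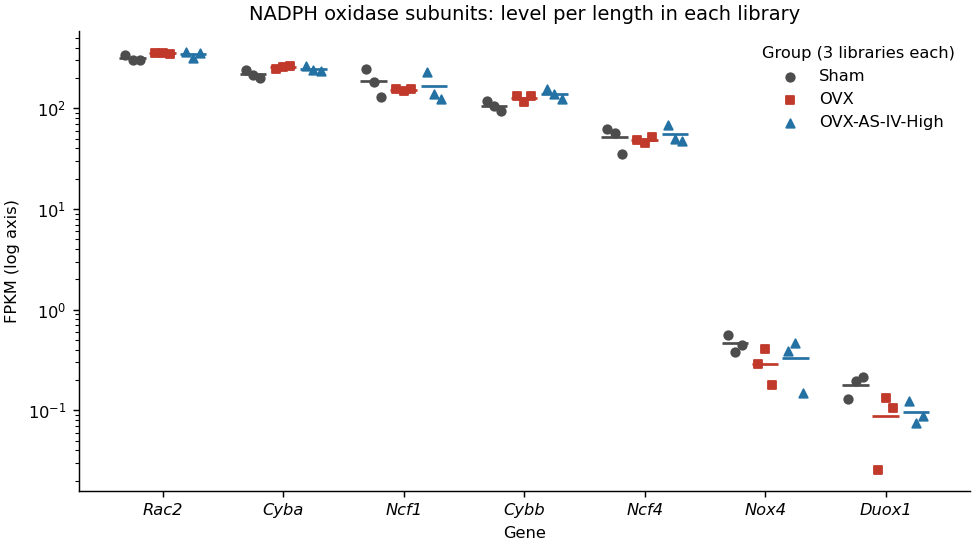
FPKM of each subunit (log axis) in each library, by group; points are libraries and lines are means of 3 libraries. The 5 phagocyte subunits lie between 35.5 and 363 FPKM in every library, and Nox4 and Duox1 are at most 0.563 FPKM.

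Cybb (gene identifier 66021) was the member with the largest positive difference between OVX-AS-IV-High and Sham. Its CPM, the counts scaled by a library size normalized with TMM, were 496, 464 and 404 in Sham-1, Sham-2 and Sham-3, 561, 474 and 561 in OVX-1, OVX-2 and OVX-3, and 678, 599.9 and 529 in OVX-AS-IV-High-1, OVX-AS-IV-High-2 and OVX-AS-IV-High-3. All OVX-AS-IV-High libraries lay above all Sham libraries, while OVX-2 lay inside the Sham range and the OVX and OVX-AS-IV-High ranges overlapped. Mean CPM was 454 ± 46.9 for Sham, 532 ± 50.2 for OVX and 602 ± 74.7 for OVX-AS-IV-High (SD, n = 3 each). For OVX-AS-IV-High vs. Sham the log2 fold change (log2FC) was 0.41 (95% interval 0.12 to 0.70), a fold of 1.33, with an unadjusted p of 0.0113 and a Benjamini-Hochberg adjusted p of 0.169 by edgeR's quasi-likelihood test. Cybb therefore did not pass adjustment over all genes with edgeR, and it did with DESeq2, whose adjusted p was 0.0449; adjusted p-values over the alternatives ranged from 0.0449 to 0.40. With 1 library left out at a time, the log2FC lay between 0.31 and 0.49. For OVX vs. Sham the log2FC of Cybb was 0.23 (95% interval -0.06 to 0.52), and for OVX-AS-IV-High vs. OVX it was 0.18 (95% interval -0.11 to 0.47), with edgeR adjusted p of 0.392 and 0.920. The comparisons share libraries, so these values are not independent of each other. In RNA from whole tissue, more cells of a type and more RNA per cell cannot be told apart.

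Cyba (79129) had CPM of 166, 154 and 142 in Sham-1 to Sham-3, 170.3, 175 and 182 in OVX-1 to OVX-3, and 189.7, 169.7 and 166 in OVX-AS-IV-High-1 to OVX-AS-IV-High-3. All OVX libraries were above all Sham libraries, by a small margin between OVX-1 and Sham-1, and OVX-AS-IV-High-3 lay inside the Sham range. Mean CPM was 154 ± 12.1 for Sham, 176 ± 6.03 for OVX and 175 ± 12.9 for OVX-AS-IV-High (SD, n = 3 each). The log2FC was 0.19 (95% interval -0.02 to 0.40) for OVX vs. Sham, with an edgeR unadjusted p of 0.0739 and adjusted p of 0.343, and 0.18 (95% interval -0.03 to 0.39) for OVX-AS-IV-High vs. Sham, with 0.0842 and 0.351. Without Sham-1 the unadjusted p became 0.0393 and 0.0365 in these comparisons, with log2FC of 0.24 and 0.25. With other libraries left out, the log2FC was as low as 0.13 and 0.12, and the edgeR unadjusted p was as high as 0.207 and 0.254. For OVX-AS-IV-High vs. OVX the log2FC was -0.01 (95% interval -0.22 to 0.20), and this sign changed with the size factors of DESeq2 and when Sham-1, OVX-2, OVX-3, OVX-AS-IV-High-2 or OVX-AS-IV-High-3 was left out (to at most 0.03).

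The promoters of the genes of the membrane core and of Ncf1 are shown because transcription factors of myeloid cells are known to act on oxidase genes, and because Cybb and Ncf1 differ in pattern below. RefSeq sequences of build GRCr8 were found for 5 of 7 members, not for Ncf4 and Rac2. In the 250 bases before each start, both strands were searched for the PU.1 (Spi1) core GAGGAA, the longer GAGGAAGT, which contains that core, and the interferon regulatory factor core GAAA, any 2 bases, GAAA. Of 33469 promoters of this length, 23.3% hold the short PU.1 core, 2.04% the longer form and 3.41% the interferon regulatory factor core. The last 150 bases before the start are chrX:16065066-16065215 on the minus strand for Cybb, chr19:67404215-67404364 on the minus strand for Cyba and chr12:28121735-28121884 on the plus strand for Ncf1. Each is written in the direction of its gene, with matches in capitals.
Cybb: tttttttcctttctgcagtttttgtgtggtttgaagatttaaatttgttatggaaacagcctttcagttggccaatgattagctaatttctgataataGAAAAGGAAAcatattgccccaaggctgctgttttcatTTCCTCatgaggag
Cyba: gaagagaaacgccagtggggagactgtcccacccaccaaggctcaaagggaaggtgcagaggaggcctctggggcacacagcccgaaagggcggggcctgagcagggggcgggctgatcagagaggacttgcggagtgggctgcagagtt
Ncf1: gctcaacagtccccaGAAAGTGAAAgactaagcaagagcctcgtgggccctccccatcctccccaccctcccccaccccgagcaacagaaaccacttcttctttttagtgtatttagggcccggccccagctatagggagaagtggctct
The Cybb promoter holds an interferon regulatory factor core 52 to 43 bases before the start and, on the opposite strand, a short PU.1 core 14 to 9 bases before it. Ncf1 holds an interferon regulatory factor core 135 to 126 bases before its start, and Duox1 a short PU.1 core on the opposite strand 230 to 225 bases before its start. The windows of Cyba and Nox4 hold none of the searched letters. These matches describe the sequence, and binding was not tested.

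Ncf1 (114553), the organizer that carries the activating phosphorylation sites, had CPM of 691, 531 and 366 in Sham-1 to Sham-3, 440.3, 411 and 437 in OVX-1 to OVX-3, and 672, 399 and 354 in OVX-AS-IV-High-1 to OVX-AS-IV-High-3. Sham-1, Sham-2 and OVX-AS-IV-High-1 were high, the OVX libraries were close to each other, and the groups overlapped. The SD of CPM was 163 in Sham and 172 in OVX-AS-IV-High but 16.1 in OVX (n = 3 each). Log2FC was -0.30 (95% interval -0.91 to 0.30) for OVX vs. Sham, 0.15 (95% interval -0.46 to 0.75) for OVX-AS-IV-High vs. OVX and -0.16 (95% interval -0.76 to 0.45) for OVX-AS-IV-High vs. Sham, with edgeR adjusted p of 0.579, 0.964 and 0.792. The sign depended on OVX-AS-IV-High-1, without which the log2FC against OVX was -0.19, and on Sham-1 and OVX-AS-IV-High-3, without which the log2FC of OVX-AS-IV-High vs. Sham was 0.09 and 0.02. For OVX vs. Sham the log2FC ranged from -0.51 to -0.07 with 1 library left out at a time.

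Ncf4 (500904), whose protein binds a phosphoinositide of the phagosome membrane, had CPM of 135, 128 and 78.5 in Sham-1 to Sham-3, 106, 96.4 and 115 in OVX-1 to OVX-3, and 156, 110.1 and 104 in OVX-AS-IV-High-1 to OVX-AS-IV-High-3. Sham-3 was the lowest library and OVX-AS-IV-High-1 the highest, and the groups overlapped. Its log2FC was -0.11 (95% interval -0.59 to 0.38) for OVX vs. Sham, 0.22 (95% interval -0.27 to 0.71) for OVX-AS-IV-High vs. OVX and 0.11 (95% interval -0.37 to 0.60) for OVX-AS-IV-High vs. Sham. The sign changed in OVX vs. Sham without Sham-1 (0.03) and in OVX-AS-IV-High vs. Sham without Sham-3 or OVX-AS-IV-High-1 (-0.09 each).

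Rac2 (366957), the GTPase of blood cells that switches the complex on, had CPM of 504, 463 and 461 in Sham-1 to Sham-3, 523, 525 and 526 in OVX-1 to OVX-3, and 559.7, 478 and 530.3 in OVX-AS-IV-High-1 to OVX-AS-IV-High-3. The OVX libraries were almost equal and all above Sham, with a mean CPM of 525 ± 1.35 (SD, n = 3) against 476 ± 23.95 (SD, n = 3), while OVX-AS-IV-High-2 lay inside the Sham range. The log2FC was 0.14 (95% interval -0.07 to 0.35) for OVX vs. Sham and 0.13 (95% interval -0.07 to 0.34) for OVX-AS-IV-High vs. Sham, with edgeR adjusted p of 0.453 and 0.478. For OVX-AS-IV-High vs. OVX it was -0.01 (95% interval -0.21 to 0.20), and this sign changed with the size factors of DESeq2 and without Sham-1, OVX-1, OVX-2 or OVX-AS-IV-High-2 (to at most 0.06). Rac2 overlaps 2 long noncoding genes in the GRCr8 annotation, of which 1 is in the deposited table, with at most 41 counts in a library against at least 15798 for Rac2. Ncf4 and Rac2 lie on chromosome 7 with 13 annotated genes between them, 9 of them protein-coding.

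Nox4 (85431), a homolog that makes mainly hydrogen peroxide, had 83, 55 and 66 counts in Sham-1 to Sham-3, 43, 61 and 27 in OVX-1 to OVX-3, and 59, 72 and 22 in OVX-AS-IV-High-1 to OVX-AS-IV-High-3. OVX-3 and OVX-AS-IV-High-3 were the lowest libraries. In CPM the highest OVX library and the lowest Sham library both came to 1.61, and in counts and FPKM the groups overlapped. The log2FC was -0.71 (95% interval -1.74 to 0.32) for OVX vs. Sham, 0.25 (95% interval -0.78 to 1.28) for OVX-AS-IV-High vs. OVX, and -0.46 (95% interval -1.48 to 0.56) for OVX-AS-IV-High vs. Sham, with edgeR adjusted p of 0.439, 0.964 and 0.623. Without OVX-AS-IV-High-2 the log2FC against OVX was -0.07. With 1 library left out at a time, the log2FC ranged from -1.02 to -0.46 in OVX vs. Sham and from -0.78 to -0.10 in OVX-AS-IV-High vs. Sham.

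Duox1 (266807), a homolog with a peroxidase-like domain known from airway and thyroid, had 25, 37 and 41 counts in Sham-1 to Sham-3, 5, 26 and 21 in OVX-1 to OVX-3, and 25, 15 and 17 in OVX-AS-IV-High-1 to OVX-AS-IV-High-3. OVX-1 was the lowest, and its 5 counts have a 95% Poisson interval of 1.62 to 11.7, which covers counting error only. Sham-2 and Sham-3 were above every other library, and Sham-1 was level with OVX-2 and OVX-AS-IV-High-1. In CPM the lowest Sham library, at 0.687, was barely above the highest OVX library, at 0.686, and in FPKM these groups overlapped. The log2FC was -1.06 (95% interval -2.30 to 0.17) for OVX vs. Sham and -0.90 (95% interval -2.13 to 0.32) for OVX-AS-IV-High vs. Sham, with edgeR unadjusted p of 0.0825 and 0.131 and adjusted p of 0.353 and 0.420. Without OVX-2 the log2FC for OVX vs. Sham was -1.47 with an unadjusted p of 0.0469, and without OVX-1 that for OVX-AS-IV-High vs. Sham stayed at -0.90 with an unadjusted p of 0.0482. With 1 library left out at a time, the log2FC ranged from -1.47 to -0.64 in OVX vs. Sham and from -1.15 to -0.75 in OVX-AS-IV-High vs. Sham. For OVX-AS-IV-High vs. OVX the log2FC was 0.16 (95% interval -1.09 to 1.41), and it was -0.26 without OVX-1 and -0.09 without OVX-AS-IV-High-1. At these counts the 95% intervals of log2FC were wide, and each of them included 0.

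**Figure D2:**
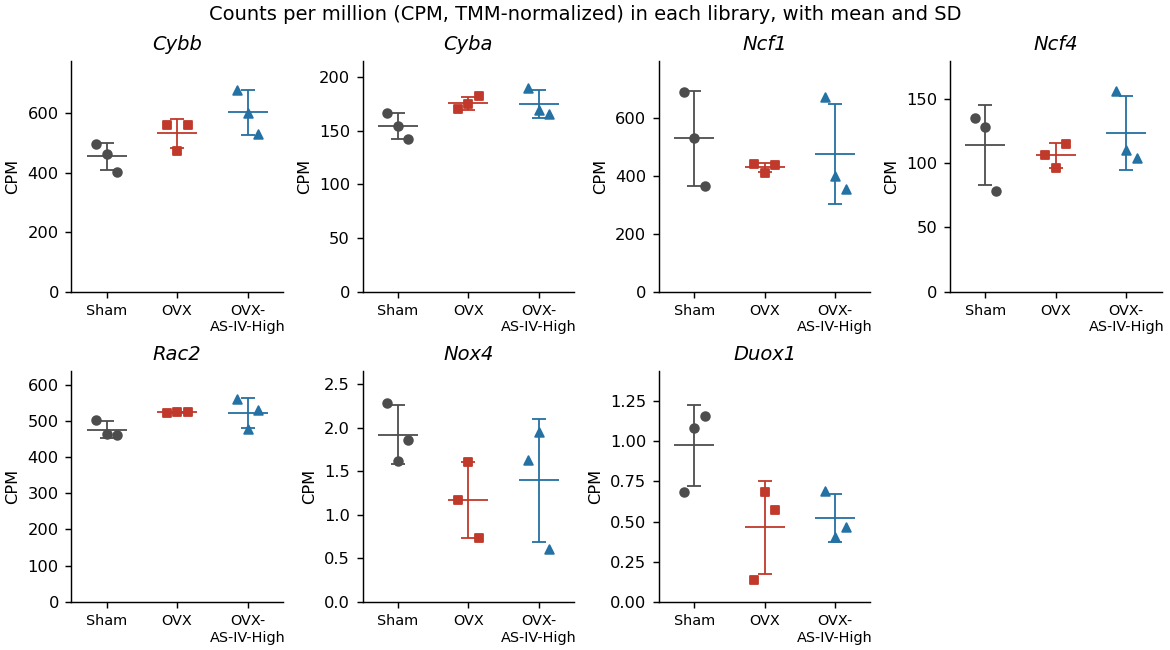
TMM-normalized CPM of the 7 subunits in each library, by group; points are libraries, and bars are the mean and SD of 3 libraries. Cybb is at least 529 CPM in the OVX-AS-IV-High libraries and at most 496 CPM in the Sham libraries, and the OVX libraries of Rac2 and Ncf1 are close to each other.

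The comparison of OVX with Sham asks what the loss of ovarian function did to these genes. Of the 7 subunits, 0 had an unadjusted p under 0.05 with an absolute log2FC over 1, the thresholds of the study's results, where 3.11% of all genes tested did so. The study's methods give 0.58 for log2FC instead, and the study's thresholds named below are those of its results. By edgeR, 0 of 7 had an adjusted p under 0.05 (0% of all genes) and 0 of 7 an unadjusted p under 0.05 (16.4% of all genes), and DESeq2 gave 0 adjusted calls among them. The groups did not overlap in CPM for 4 of 7 (Cyba and Rac2 higher in OVX, Nox4 and Duox1 lower), against 23.3% of all genes, and in FPKM for 2 of 7 (Cyba and Rac2), against 23.7%. Without OVX-2 Duox1 passed both the study's thresholds and an unadjusted p under 0.05, a count of 1, and without Sham-1 Cyba had an unadjusted p under 0.05, also a count of 1, against 12.0% and 12.3% of all genes in these fits. By limma the count was 1 on log2(FPKM + 1) (Cyba), 1 on log2(FPKM + 0.1) (Duox1) and 3 with no filter (Cyba, Rac2 and Duox1), against 17.5%, 16.1% and 14.5% of all genes in these fits. The median log2FC of the 7 was -0.11, and that of all genes was -0.01. Among all genes edgeR gave 525 calls by the study's thresholds, 1028 without Sham-3, and DESeq2 gave 834 adjusted calls.

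The comparison of OVX-AS-IV-High with OVX asks what the drug did in ovariectomized rats. By the study's thresholds 0 of 7 subunits were called (0.830% of all genes), 0 of 7 had an edgeR adjusted p under 0.05 (0% of all genes) and 0 of 7 an unadjusted p under 0.05 (6.45% of all genes), with 0 adjusted calls by DESeq2, which gave 32 among all genes. The groups did not overlap for 0 of 7 in CPM, against 12.7% of all genes, or in FPKM, against 13.8%. The smallest edgeR unadjusted p was 0.196, that of Cybb, and the median log2FC was 0.16, against -0.02 for all genes. The 95% intervals of Cyba and Rac2 lay within 0.22 of zero on the log2 scale, and those of Nox4 and Duox1 reached past 1.

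The comparison of OVX-AS-IV-High with Sham sets the treated rats against rats with ovaries. Here 0 of 7 subunits were called by the study's thresholds (3.15% of all genes) and 0 of 7 by an edgeR adjusted p under 0.05 (0% of all genes). At an unadjusted p under 0.05 there was 1 of 7, Cybb, against 17.6% of all genes, and DESeq2 gave 1 adjusted call, also Cybb, of 1021 among all genes. The groups did not overlap in CPM for 1 of 7 (Cybb), against 19.9% of all genes, and in FPKM for 2 of 7 (Cybb higher and Duox1 lower), against 19.8%. Counts of 1 and 2 among 7 genes are near these shares. The count at an unadjusted p under 0.05 was 2 without Sham-1, with Cyba, 2 without OVX-1, with Duox1, and 2 by limma with no filter, with Cyba, against 14.2%, 16.2% and 14.6% of all genes. The median log2FC was 0.11, and that of all genes was -0.01.

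**Figure D3:**
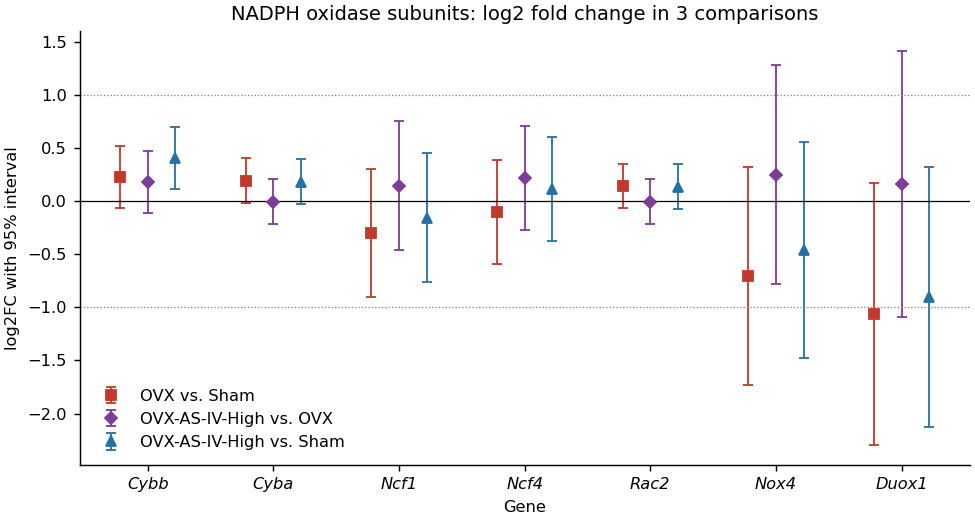
Log2FC of each subunit in the 3 comparisons, with 95% intervals from edgeR; dotted lines mark the study's threshold of 1 in either direction. The interval of Cybb in OVX-AS-IV-High vs. Sham, 0.12 to 0.70, is the only one of these that does not include 0.

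The subunits did not vary together in every respect. Over the 9 libraries, log2 CPM of Ncf1 and Ncf4 had a Pearson r of 0.87 (Spearman rho 0.83). It was 0.74 without the 2 libraries farthest from the median of Ncf1. In each pair the 2 farthest libraries were set by the gene named first, so they can differ between pairs. For Cyba and Rac2 r was 0.85 (rho 0.73, r 0.69 without the 2 farthest). For Cybb and Cyba r was 0.84 (rho 0.72), and 0.48 without the 2 farthest. Leaving out the farthest libraries also narrows the range of values, which by itself tends to lower r. Cybb and Ncf1, which act in the same complex, had an r of 0.33 (rho 0.20), which was -0.45 without the 2 farthest. For deviations from the group means r was 0.94 for Ncf1 and Ncf4, 0.68 for Cyba and Rac2, 0.79 for Cybb and Cyba and 0.86 for Cybb and Ncf1. It was 0.945 for Cyba and Ncf1, 0.91 for Cyba and Ncf4 and 0.88 for Cybb and Ncf4, against 0.36, 0.60 and 0.65 over the 9 libraries. Without the 2 farthest libraries, and with group means left in, r of these pairs was -0.34, -0.47 and -0.24. Deviations from means of 3 libraries leave few free values. The lowest r for these deviations was -0.28, for Cybb and Duox1. All 21 pairs were computed, and the points share libraries and normalization.

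The ratio of subunits within a library, chosen after the values were seen and described with no test, shows how the composition of the transcripts differed. The FPKM ratio of Ncf1 to Cybb was 2.09, 1.72 and 1.36 in Sham-1 to Sham-3, 1.18, 1.30 and 1.17 in OVX-1 to OVX-3, and 1.49, 0.999 and 1.01 in OVX-AS-IV-High-1 to OVX-AS-IV-High-3. All OVX libraries were under all Sham libraries, and OVX-AS-IV-High-1 lay inside the Sham range. The FPKM ratio of Cyba to Cybb was 2.04, 2.02 and 2.14 in Sham-1 to Sham-3, 1.85, 2.25 and 1.98 in OVX-1 to OVX-3, and 1.70, 1.72 and 1.91 in OVX-AS-IV-High-1 to OVX-AS-IV-High-3, so that the OVX-AS-IV-High libraries were under Sham and OVX overlapped both. The FPKM ratios of Ncf4 to Cybb and of Rac2 to Rac1 overlapped between groups in all 3 comparisons. With 3 libraries against 3, an exact permutation test cannot give a p under 0.1.

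**Figure D4:**
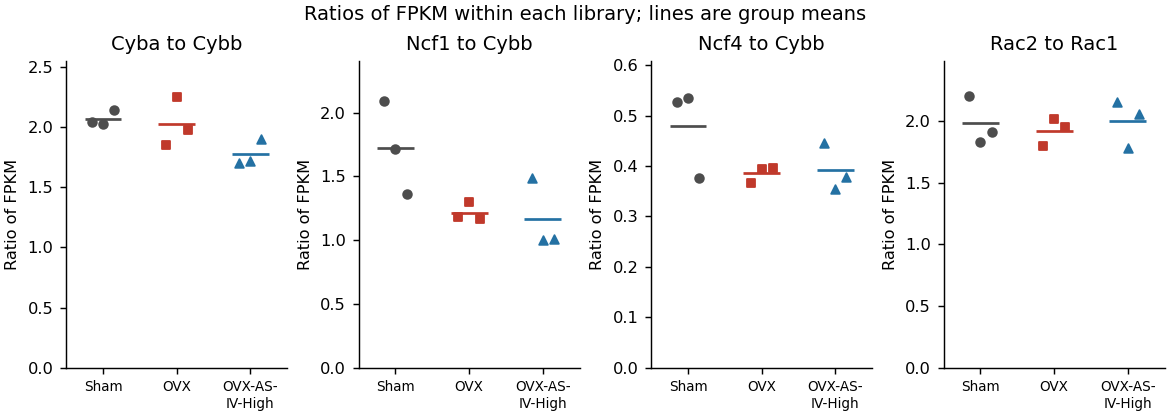
Ratios of FPKM between subunits within each library, by group; points are libraries and lines are group means. The ratio of Ncf1 to Cybb is at least 1.36 in Sham and at most 1.30 in OVX.

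The other genes of the oxidases were taken from 5 lists of 48 genes, of which 47 were in the table and 44 were tested; Nox3 was absent from the table. The lists hold other subunits and homologs, activating enzymes, phagocyte receptors, transcription factors and partners in other roles. In the list of subunits, homologs and chaperones, Noxo1 and Noxa1, organizer and activator of Nox1, and Duox2, a homolog of Duox1, had at most 5, 2 and 13 counts. They did not pass the filter on low counts and were tested only in the fits with no filter. Nox1, Duoxa1, Duoxa2 and Rac3 had at most 85, 79, 30 and 72 counts in a library. Rac1, the widely expressed relative of Rac2, had a mean FPKM of 159.6 ± 4.77 for Sham, 185 ± 9.85 for OVX and 172 ± 4.46 for OVX-AS-IV-High (SD, n = 3 each). Cybc1, a chaperone of the membrane core, had mean FPKM of 35.6, 40.8 and 40.6 in these groups, and Nrros, which lowers the amount of Cybb protein, of 50.6, 52.1 and 48.5.

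In OVX vs. Sham, 13 of the 44 other oxidase genes were higher at an unadjusted p under 0.05, where 8.16% of all genes were, and 0 were lower, where 8.28% were. Their median log2FC was 0.15, against -0.01 for all genes. Dock2, an exchange factor that activates Rac proteins in blood cells, had CPM of 58.5, 58.6 and 60.2 in Sham-1 to Sham-3, 81.8, 85.0 and 90.5 in OVX-1 to OVX-3, and 71.6, 71.9 and 79.9 in OVX-AS-IV-High-1 to OVX-AS-IV-High-3. The Dock2 groups did not overlap in any comparison, with OVX highest and Sham lowest. Its log2FC for OVX vs. Sham was 0.54 (95% interval 0.35 to 0.72), with an edgeR unadjusted p of 9.6e-05 and adjusted p of 0.118 and a DESeq2 adjusted p of 1.28e-06. Hvcn1, the proton channel that balances the charge moved by the oxidase, had CPM of 10.5, 11.9 and 12.5 in Sham-1 to Sham-3, 18.0, 16.8 and 21.4 in OVX-1 to OVX-3, and 13.8, 17.4 and 20.9 in OVX-AS-IV-High-1 to OVX-AS-IV-High-3. All Hvcn1 values of both ovariectomized groups were above all Sham values, and the log2FC for OVX vs. Sham was 0.68 (95% interval 0.30 to 1.07). By list, the 13 were Rac1 (log2FC 0.19) among subunits and homologs; Prkcb (0.21), Prex1 (0.31), Dock2, Arhgdib (0.42) and Pla2g4a (0.38) among activating enzymes; Clec7a (0.37), the receptor for fungal glucans, among phagocyte receptors; Spi1 (0.25), Cebpa (0.28), Irf8 (0.45) and Runx1 (0.27) among transcription factors; and Hvcn1 and Sh3pxd2a (0.34) among the partners. By edgeR 0 of 44 had an adjusted p under 0.05 or passed the study's thresholds, and DESeq2 gave 5 adjusted calls, of 834 among all genes, and 14 at an unadjusted p under 0.05 (18.8% of all genes). The count of 13 was 8 without Sham-1 and 7 without OVX-3, while the share of all genes in either direction went from 16.4% to 12.3% and 10.6%; Arhgdib, Clec7a, Dock2, Hvcn1, Irf8 and Pla2g4a, 6 genes, had an unadjusted p under 0.05 in all 18 fits, the reported one included. Without OVX-2, Cebpb passed the study's thresholds with a log2FC of -1.30, and with all libraries it had -0.72 and an unadjusted p of 0.0723.

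When OVX-AS-IV-High was compared with OVX, 1 of 44 other oxidase genes was higher at an unadjusted p under 0.05, where 4.42% of all genes were, and 2 were lower, where 2.03% were. Rap1a, a small GTPase found with the membrane core, had CPM of 165, 142 and 144 in Sham-1 to Sham-3, 153, 133 and 145 in OVX-1 to OVX-3, and 222, 200.3 and 149 in OVX-AS-IV-High-1 to OVX-AS-IV-High-3. OVX-AS-IV-High-1 and OVX-AS-IV-High-2 were above all other libraries, OVX-AS-IV-High-3 was inside the OVX range, and the log2FC was 0.40 (95% interval 0.08 to 0.73). Dock2 had a log2FC of -0.20 (95% interval -0.39 to -0.02), and Irf8, a transcription factor of monocytes and B cells, of -0.30 (95% interval -0.56 to -0.04). The edgeR unadjusted p of Rap1a, Dock2 and Irf8 was 0.0205, 0.0349 and 0.0275, and the adjusted p was 0.679, 0.737 and 0.723. By edgeR 0 of 44 had an adjusted p under 0.05 or passed the study's thresholds, and DESeq2 gave 0 adjusted calls, of 32 among all genes, and 3 at an unadjusted p under 0.05 (7.46% of all genes). The count of 3 was 1 without OVX-AS-IV-High-1 (5.11% of all genes), 0 without OVX-AS-IV-High-2 (4.00%), 2 without OVX-1 (5.71%) or OVX-2 (4.25%) and 5 without Sham-1 (6.95%) or Sham-3 (7.46%). By limma on log2(FPKM + 1) 1 was higher and 4 lower, where 3.26% and 3.83% of all genes were, and with no filter 1 and 5, where 2.74% and 4.13% were. The count was 5 in a fit of only these groups (7.00%), and 0 genes held in all 18 fits.

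In OVX-AS-IV-High vs. Sham, 13 of 44 other oxidase genes were higher at an unadjusted p under 0.05, where 9.17% of all genes were, and 1 was lower, where 8.48% were. Their median log2FC was 0.21, against -0.01 for all genes. Clec7a had CPM of 112, 102 and 80.6 in Sham-1 to Sham-3, 119, 129 and 132 in OVX-1 to OVX-3, and 149, 149.9 and 151 in OVX-AS-IV-High-1 to OVX-AS-IV-High-3. The Clec7a groups did not overlap in any of the comparisons, with OVX-AS-IV-High highest. Its log2FC for OVX-AS-IV-High vs. Sham was 0.61 (95% interval 0.35 to 0.88), with an edgeR adjusted p of 0.10 and a DESeq2 adjusted p of 0.000539. The other 12 that were higher were Hvcn1 (log2FC 0.58), Arhgdib (0.43), Rap1a (0.34), Dock2 (0.33), Vav3 (0.27), Pik3cg (0.24), Prkcb (0.21) and Pak2 (0.21), the receptors C5ar1 (0.31) and Itgb2 (0.24), and the transcription factors Cebpa (0.33) and Spi1 (0.27). Poldip2, a partner of Nox4, was lower, with a log2FC of -0.20. By edgeR 0 of 44 had an adjusted p under 0.05 or passed the study's thresholds, and DESeq2 gave 6 adjusted calls, of 1021 among all genes, and 16 at an unadjusted p under 0.05 (19.5% of all genes). The count of 14 in either direction was 9 without Sham-3 (23.5% of all genes), 9 without OVX-AS-IV-High-2 (11.3%) and 8 by limma on log2(FPKM + 0.1) (16.4% of all genes), and 7 genes (Arhgdib, Cebpa, Clec7a, Dock2, Hvcn1, Spi1 and Vav3) were among them in all 18 fits. The study's thresholds were passed by Fpr2 without Sham-1 (log2FC 1.02) and by Duoxa1 without Sham-2 (log2FC -1.27). With no filter on low counts, Duox2 passed them (log2FC -1.58), with at most 13 counts in a library. In these fits 14.2%, 11.2% and 13.8% of all genes had an unadjusted p under 0.05. Among all genes edgeR gave 531 calls by the study's thresholds, 831 without Sham-3 and 909 without OVX-AS-IV-High-1.

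**Figure D5:**
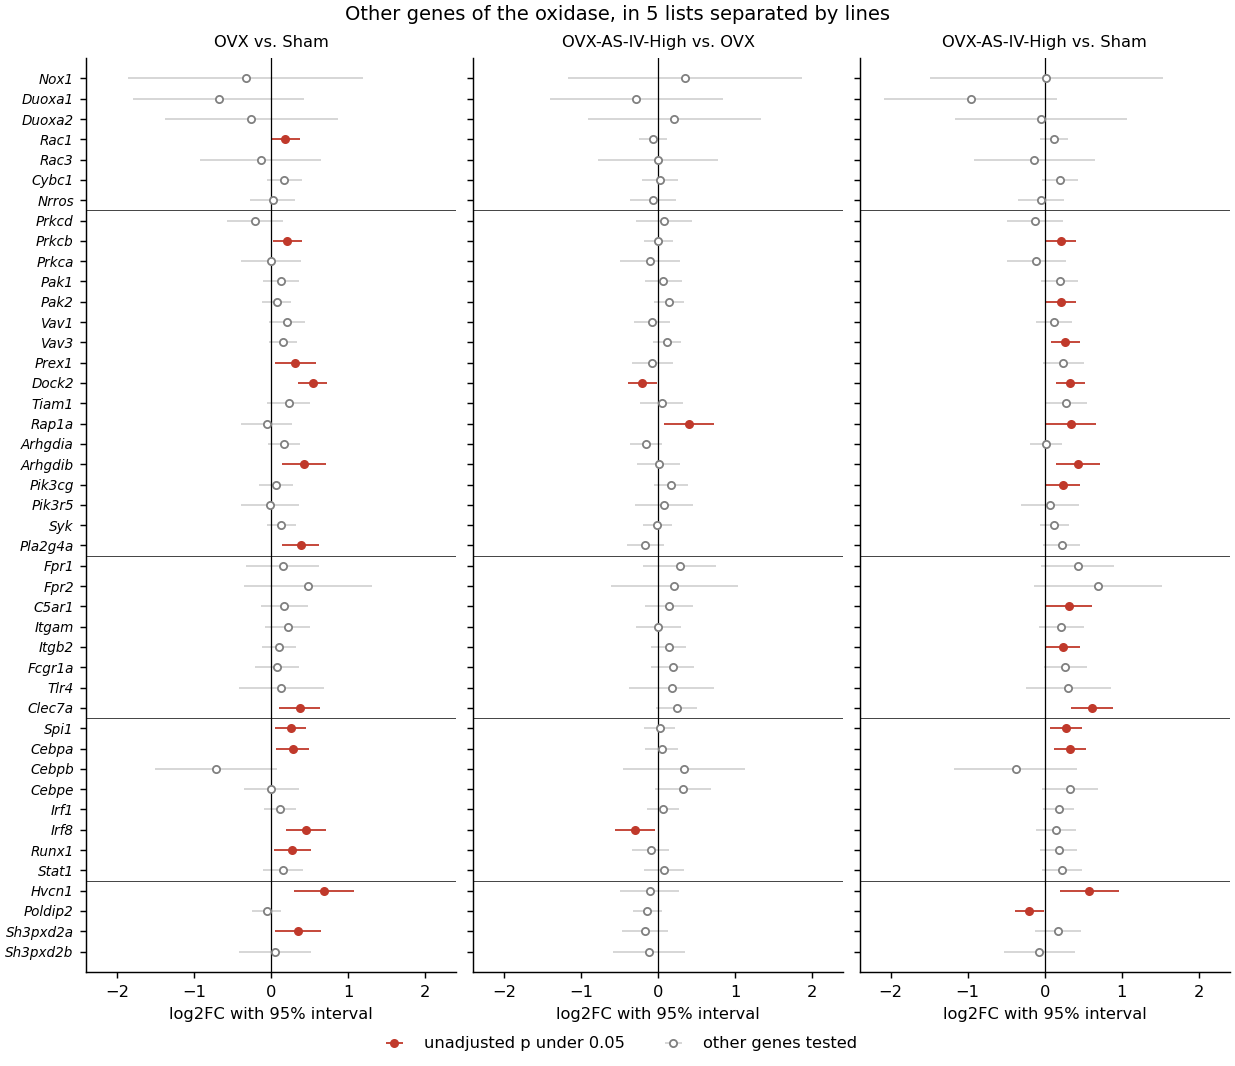
Log2FC with 95% intervals of the 44 other oxidase genes tested, in 5 lists separated by lines, for the 3 comparisons; filled points have an unadjusted p under 0.05. The filled points number 13 for OVX vs. Sham, 3 for OVX-AS-IV-High vs. OVX and 14 for OVX-AS-IV-High vs. Sham.

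Markers of the cell types in bone were read beside the subunits. The 12 neutrophil markers, led by S100a9, summed to 17503, 15865 and 12542 CPM in Sham-1 to Sham-3, 15836, 15035 and 19920 CPM in OVX-1 to OVX-3, and 22650, 19043 and 17142 CPM in OVX-AS-IV-High-1 to OVX-AS-IV-High-3. The log2 of this sum had a Pearson r of 0.91 with log2 CPM of Cybb over 9 libraries (rho 0.75, r 0.68 without the 2 libraries farthest from the median sum). For Cyba and Ncf4 r was 0.84 and 0.81 (rho 0.58 and 0.78), and 0.41 and 0.27 without those 2 libraries. Leaving them out also narrows the range of the sum, which by itself tends to lower r. For Ncf1 and Rac2 r was 0.50 and 0.61 (rho 0.38 and 0.55), and -0.05 and -0.03 without those 2 libraries. In OVX-AS-IV-High vs. Sham, 5 of 11 neutrophil markers tested were higher at an unadjusted p under 0.05 (Elane, Mpo, Lcn2, S100a9 and Cxcr2) and 0 lower, against 3 and 0 for OVX vs. Sham and 1 and 0 for OVX-AS-IV-High vs. OVX. Of all genes, 9.17%, 8.16% and 4.42% were higher by this rule in these comparisons. The part of neutrophil content in the values of Cybb was not tested.

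The 7 skeletal muscle markers in the table, led by Acta1, summed to 7791, 5139 and 1361 CPM in Sham-1 to Sham-3, 2721, 1646 and 1351 CPM in OVX-1 to OVX-3, and 3902, 1776 and 463 CPM in OVX-AS-IV-High-1 to OVX-AS-IV-High-3. Their log2 sum had an r of 0.87 with Ncf1 (rho 0.87, r 0.81 without the 2 farthest libraries) and of 0.06 with Cybb (rho 0.07). The 7 osteoclast markers, led by Ctsk, summed to 585, 1016 and 1749 CPM in Sham-1 to Sham-3, 996, 1888 and 2044 CPM in OVX-1 to OVX-3, and 889, 1508 and 2038 CPM in OVX-AS-IV-High-1 to OVX-AS-IV-High-3, with an r of -0.87 with Ncf1 (rho -0.77, r -0.70 without the 2 farthest). The 9 macrophage markers in the table, led by Csf1r, summed to 540.5, 679.8 and 1016 CPM in Sham-1 to Sham-3, 736, 848 and 836 CPM in OVX-1 to OVX-3, and 630.2, 729 and 772 CPM in OVX-AS-IV-High-1 to OVX-AS-IV-High-3, with an r of -0.84 with Ncf1 (rho -0.77, r -0.76 without the 2 farthest) and -0.46 with Cybb (rho -0.42). With Ncf4 the macrophage sum had an r of -0.87 (rho -0.88, r -0.83 without the 2 farthest). Libraries high in Ncf1 were thus high in muscle transcripts and low in osteoclast and macrophage transcripts. The part of these tissues in the values of Ncf1 and Ncf4 was not tested.

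At an unadjusted p under 0.05, 7 of 7 B lineage markers were higher in OVX vs. Sham (8.16% of all genes), and 4 of 7 were lower when the treated rats were compared with OVX (2.03% of all genes). Their sum, led by Cd79a, was 650.5, 628 and 808 CPM in Sham-1 to Sham-3, 1084, 1125 and 1098 CPM in OVX-1 to OVX-3, and 742, 818 and 1051 CPM in OVX-AS-IV-High-1 to OVX-AS-IV-High-3. Irf8, Spi1, Dock2 and Hvcn1 are also expressed in B cells, and the means of Dock2, Hvcn1 and Irf8 were, like this sum, highest in OVX and lowest in Sham. The mean of Spi1 was highest in OVX-AS-IV-High in CPM (145, against 143 in OVX) and highest in OVX in FPKM (35.0, against 34.7 in OVX-AS-IV-High). The part of B cells in the values of the other oxidase genes was not tested. Of 7 adipocyte markers, 6 were higher than Sham in the OVX rats and 5 in the treated rats. Of 8 endothelial markers, 2 were lower than Sham in the OVX rats and 5 in the treated rats. Of 10 osteoblast and osteocyte markers, 1 was higher than Sham in the OVX rats (Bglap) and 1 in the treated rats (Phex), and of 8 T and NK cell markers 2 and 1 were. Of all genes, 8.16% were higher and 8.28% lower than Sham in the OVX rats, and 9.17% and 8.48% in the treated rats, so 1 of 10 or 1 of 8 is near the share of all genes. Among 7 erythroid markers 1 was lower in the OVX rats (Epor), and of 4 epithelial markers tested 0 differed by this rule in any comparison by edgeR or DESeq2. No marker in the table, from 11 lists, was at 3 counts or fewer in every library.

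The genes most like each subunit over the 9 libraries, by Pearson r of log2 CPM among 11848 genes with a mean of at least 5 CPM, were named by a rule that takes 3 for each. For Cybb these were Actr3 (r 0.97), Exo5 (0.96) and Gsr (0.96), the glutathione reductase that uses NADPH. For Cyba they were Arhgdib (0.97), Gmfg (0.97) and Ethe1 (0.96), and Arhgdib, a keeper of inactive Rac proteins in blood cells, is also in the list of activating enzymes. Ncf1 was most like Cyp4f18 (0.99), Mcemp1 (0.99) and Ptpn18 (0.98), and Ncf4 most like Fra10ac1, Ptpre and Rasgrp4 (0.97 each). Rac2 was most like Anapc4 (0.96), B3gnt2 (0.94) and Rassf2 (0.94). The low members, with at most 83 counts for Nox4 and 41 for Duox1, had Prex2 (0.93), Shb (0.91) and Numbl (0.90) for Nox4. For Duox1 they were Ptpru (0.97), St3gal3 (0.97) and Gli2 (0.94). Each r was picked as among the highest of many genes over only 9 libraries, which favours high values, and likeness was not tested. No gene was among the 3 most like genes of more than 1 subunit.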

How the data were processed

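Clean reads were mapped by the authors with Tophat and Bowtie2, and eXpress was used to quantify genes; the labels name build mRatBN7.2. The deposited counts are whole numbers with no normalization, and how estimates became whole numbers is not stated. The authors also deposited FPKM values for the same genes. From the counts, TMM-normalized CPM and log2FC were computed with edgeR 4.0.16 in R 4.3.3, by the quasi-likelihood test with all 9 libraries in a single fit of 3 groups and the default filter (minimum count of 10), which left 16874 of 23026 genes. The common biological coefficient of variation came to 0.256. P-values were adjusted by Benjamini-Hochberg over all genes tested. The test was also run on simulated counts with this common coefficient for every gene and larger changes than those reported for the subunits. That run therefore does not show how the test performs for the subunits. Likeness used log2 CPM with a prior count of 2. The members and lists were chosen with earlier results of these data known. The genes named are the 7 members, all genes of the list of other subunits and homologs, the genes of the other lists with an unadjusted p under 0.05 in any comparison, and the 3 genes most like each member; Cebpb and Fpr2 were named after their values were seen, as were the markers. Of the genes planned, 1 is not reported here.

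Libraries of OVX and OVX-AS-IV-High that share a replicate number had deviations from the group means with correlations of 0.31, 0.158 and 0.13. The methods describe random division of the ovariectomized rats and state no pairing, so these values do not show that rats were matched. The reported values come from the fit without the replicate block, and the block was an alternative. The alternatives were DESeq2 1.42.0, RLE size factors, no filter on low counts, limma 3.58.1 on log2(FPKM + 1) and log2(FPKM + 0.1), fits of only the groups compared, the block, leaving out each library, and a log2FC threshold of 0.58, the value in the study's methods. Counts at an unadjusted p under 0.05, FPKM ratios and overlap in FPKM were added after the data were seen. Tables and plots were made in Python 3.11.15 with numpy 2.4.6, pandas 2.3.3, scipy 1.17.1 and matplotlib 3.10.9. Gene order came from the RefSeq table of GRCr8.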

Additional observations from a re-analysis of the deposited data

How the results depend on the processing

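Of 357 log2FC values of subunits under 17 alternative fits, 333 had the reported direction and 24 did not; the latter were at most 0.26 in absolute size. In OVX-AS-IV-High vs. OVX, DESeq2, RLE size factors and no filter on low counts gave Cyba log2FC of 0.0053, 0.0053 and 0.0070, and Rac2 0.0073, 0.0073 and 0.0090. With 1 library left out at a time, log2FC ranged from -0.31 to 0.028 for Ncf4 in OVX vs. Sham. In OVX-AS-IV-High vs. OVX it ranged from -0.069 to 0.031 for Cyba, -0.19 to 0.32 for Ncf1, -0.058 to 0.055 for Rac2, -0.072 to 0.61 for Nox4 and -0.26 to 0.57 for Duox1. In OVX-AS-IV-High vs. Sham it ranged from -0.49 to 0.089 for Ncf1 and -0.094 to 0.26 for Ncf4.

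Subunits called by the study's thresholds in OVX vs. Sham, which 3.11% of all genes passed in the reported fit, numbered 1 with the replicate block (Duox1, log2FC -1.24) and 0 to 1 without 1 library. At an unadjusted p under 0.05 there were 1 by limma on log2(FPKM + 1), 1 on log2(FPKM + 0.1), 3 by limma with no filter, 1 with the block (16.2% of all genes) and 0 to 1 without 1 library (10.3% to 25.4%). In OVX-AS-IV-High vs. Sham there were 2 by limma with no filter, 2 with the block (Cybb and Cyba, against 23.5% of all genes) and 1 to 2 without 1 library (11.2% to 23.5%).

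Of the other oxidase genes, 1 was called in OVX vs. Sham with a log2FC threshold of 0.58 (Hvcn1) and 0 to 1 without 1 library. In OVX-AS-IV-High vs. Sham it was 1 with no filter (Duox2), 1 with 0.58 (Clec7a) and 0 to 1 without 1 library. With no filter, 13.8% of all genes had an unadjusted p under 0.05 in that comparison. At an unadjusted p under 0.05, OVX vs. Sham gave 7 to 13 without 1 library, where 10.3% to 25.4% of all genes passed. OVX-AS-IV-High vs. OVX gave 5 by limma on log2(FPKM + 1), 6 with no filter, 5 in a fit of only these groups and 0 to 5 without 1 library (4.00% to 8.47% of all genes). OVX-AS-IV-High vs. Sham gave 8 by limma on log2(FPKM + 0.1), 22 with the block (23.5% of all genes, against 17.6% as reported) and 9 to 17 without 1 library (11.2% to 23.5%).

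Among all genes, OVX vs. Sham gave 791 calls with no filter, 74 by limma on log2(FPKM + 1), 304 on log2(FPKM + 0.1), 66 by limma with no filter, 1174 at 0.58 and 379 to 1028 without 1 library. OVX-AS-IV-High vs. OVX gave 274, 13, 73, 12 and 369 in the same order. OVX-AS-IV-High vs. Sham gave 82, 336 and 71 by the limma fits, 1167 at 0.58 and 394 to 909 without 1 library.

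No pairing of Sham with the other groups is stated either. Same-numbered libraries had correlations of 0.2, -0.161 and 0.253 with OVX and 0.314, -0.158 and 0.435 with OVX-AS-IV-High. The block changed no other call of the subunits by the study's thresholds, and for OVX-AS-IV-High against OVX it left 0 subunits and 3 other oxidase genes at an unadjusted p under 0.05. The causes of these changes were not tested. Fits without a library leave 2 in its group, and the low counts of Nox4 and Duox1 limit what was detectable.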
